A study of Mus musculus with 6 samples.

Results

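Pdgfrb, Col1a1, Col1a2, Col3a1, Dcn and Sparc are genes that mark stromal cells and the matrix those cells lay down, and their transcripts were followed here in macrophage cultures of 3 genotypes. They were chosen by name, as 6 of the 23337 gene symbols in the deposited count table. The rule that lists them uses no measured value, but the choice was made with earlier results of these data known. The 3 genotypes were cells lacking Ch25h (Ch25hKO), cells with neither liver X receptor α nor β (LXRdKO), and wild-type cells (WT), with 2 libraries of each. Every library came from C57BL/6 bone marrow grown to day 7 in medium with M-CSF, the growth factor that drives marrow precursors to become macrophages, and then given LPS, a bacterial cell wall component, at 100 ng/ml for 8 h. Ch25h encodes the enzyme that makes the oxysterol 25-hydroxycholesterol, and the liver X receptors are nuclear receptors that oxysterols activate. No library came from cells without LPS. Whether libraries of a genotype came from separate animals or cultures is not stated in the labels. The p-values therefore set differences between genotypes only against the spread of these libraries, which may be technical.

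Stromal cells of the marrow, such as fibroblasts, pericytes and osteoblast precursors, stick to the culture surface and build the fibrous matrix around blood-forming cells. Type I collagen, a helix of chains encoded by Col1a1 and Col1a2, and type III collagen, encoded by Col3a1, form its fibrils. Decorin, the Dcn product, is a small leucine-rich proteoglycan that binds collagen fibrils and limits their thickness, the Sparc product osteonectin is a secreted protein that binds collagen and calcium, and Pdgfrb is the receptor tyrosine kinase through which PDGF-BB drives pericytes and fibroblasts. Macrophages are not counted among the main makers of fibrillar collagen.

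Total counts ranged from 41650513 to 45872964 per library, and 12923 genes passed the filter on low counts. Counts of the deleted genes went with the labels, since Ch25h in Ch25hKO was at 1.61% of its WT mean, and in LXRdKO Nr1h3 (LXRα) was at 5.64% and Nr1h2 (LXRβ) at 2.59%. The macrophage identity of the cultures was checked with 10 defining markers, among them Csf1r, the M-CSF receptor, and all 10 passed the filter. Their summed level was 18153.6 to 18816.9 CPM (counts after TMM scaling to equal depth) in Ch25hKO, 21664.6 to 21816.5 CPM in LXRdKO and 18161.2 to 19640.5 CPM in WT. The 6 stromal and matrix genes together reached 31.2 and 34.0 CPM in the Ch25hKO libraries, 15.4 and 17.0 CPM in the LXRdKO libraries and 13.2 and 14.6 CPM in the WT libraries.

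The start regions of Col1a2 and Col3a1 are shown because these collagen genes changed in the same direction in Ch25hKO while their libraries behaved differently, as described below. Both are RefSeq sequences of GRCm38.p6 on the plus strand, from 250 bases before the start to 30 after it, with capitals marking matches on either strand to the CCAAT box (CCAAT), the TATA box (TATAAA) and the GC box (GGGCGG). Windows were examined for 3 of the 6 genes, Col1a2, Col3a1 and Sparc, and the Sparc window contained none of these motifs. That the other genes are missing here does not mean that they lack RefSeq entries.
Col1a2, chr6:4505368-4505647: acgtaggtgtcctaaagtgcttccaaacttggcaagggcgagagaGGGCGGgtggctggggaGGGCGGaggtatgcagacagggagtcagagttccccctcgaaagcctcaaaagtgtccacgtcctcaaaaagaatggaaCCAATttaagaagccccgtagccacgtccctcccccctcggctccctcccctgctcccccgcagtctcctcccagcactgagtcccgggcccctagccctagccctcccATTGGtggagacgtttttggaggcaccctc
Col3a1, chr1:45311288-45311567: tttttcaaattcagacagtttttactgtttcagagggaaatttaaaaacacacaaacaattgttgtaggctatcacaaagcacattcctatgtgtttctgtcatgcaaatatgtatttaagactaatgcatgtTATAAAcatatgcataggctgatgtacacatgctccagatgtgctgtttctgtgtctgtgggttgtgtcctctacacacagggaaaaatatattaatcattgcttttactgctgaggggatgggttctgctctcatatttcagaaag
In the Col1a2 window GGGCGG began at −205 and −188, CCAAT at −109, and its reverse complement ATTGG at +1, while in the Col3a1 window TATAAA began at −117. The RefSeq starts of Col1a2 and Sparc used here lie inside their GENCODE genes, which begin further upstream. Among 32851 RefSeq windows of the same length, 36.1% held CCAAT, 13.1% held TATAAA and 34.7% held GGGCGG on at least 1 strand, and the windows shared none of these motifs.

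Coordinates are those of GENCODE M21 on GRCm38, the assembly that mm10 names. Pdgfrb (ENSMUSG00000024620.11) spans chr18:61045150-61085061 on the plus strand, with Csf1r next downstream on the same strand from 61100598. Col1a1 (ENSMUSG00000001506.10) lies at chr11:94936224-94953042 and Sparc (ENSMUSG00000018593.13) at chr11:55394500-55423183 on the minus strand, far apart on 1 chromosome. Col1a2 (ENSMUSG00000029661.16) lies at chr6:4504814-4541544 and Dcn (ENSMUSG00000019929.16) at chr10:97479609-97518143. Col3a1 (ENSMUSG00000026043.18) lies at chr1:45311538-45349706, and the collagen gene Col5a2 lies downstream of it on the opposite strand, at chr1:45374321-45503282. Only Col1a2 and Col3a1 contained another annotated gene, the unclassified model Gm43921 and the microRNA model Gm47302, both on the strand of the host. The sources used here do not give how the counting treated such overlaps, so counts of Col1a2 and Col3a1 could lack or share reads there.

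Pdgfrb was the most abundant of the 6 genes by count. It had 542 and 550 counts (12.5 and 12.6 CPM) in Ch25hKO, 361 and 331 counts (8.23 and 7.49 CPM) in LXRdKO, and 211 and 231 counts (4.75 and 5.32 CPM) in WT. The genotypes formed 3 separate levels, highest in Ch25hKO and lowest in WT, with no overlap between any of them. Pdgfrb rose 2.49-fold in Ch25hKO relative to WT (log2 fold change 1.32 ± 0.10 SE, edgeR adjusted p = 1.59e-08) and 1.56-fold in LXRdKO relative to WT (0.64 ± 0.11, edgeR adjusted p = 0.000138). It was lower in LXRdKO than in Ch25hKO (log2 fold change −0.68 ± 0.09, edgeR adjusted p = 1.62e-05). Its neighbour Csf1r had 40613 and 40971 counts in Ch25hKO, 46206 and 47040 in LXRdKO and 38713 and 37064 in WT, which put its log2 fold change in Ch25hKO relative to WT at 0.12 ± 0.05.

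Among the fibrillar collagen genes, Col1a1, the α1 chain of type I collagen, was the lowest of the 6 by count. It had 81 and 84 counts (1.87 and 1.93 CPM) in Ch25hKO, 46 and 31 counts (1.05 and 0.701 CPM) in LXRdKO, and 23 and 18 counts (0.518 and 0.414 CPM) in WT. As for Pdgfrb, the genotypes did not overlap and LXRdKO lay between the others. Col1a1 rose 4.05-fold in Ch25hKO relative to WT (log2 2.02 ± 0.27, edgeR adjusted p = 1.24e-05), the largest fold of the 6. The 18 counts of a WT library have a 95% exact Poisson interval of 10.7 to 28.4 counts and the 84 of a Ch25hKO library one of 67.0 to 104.0 (amplified reads are not independent molecules, so this covers counting error only). It rose 1.87-fold in LXRdKO relative to WT (0.90 ± 0.31, edgeR adjusted p = 0.0314), a call lost without WT replicate 2 (0.74, adjusted p = 0.117), without LXRdKO replicate 1 (0.59, adjusted p = 0.3), by DESeq2 (adjusted p = 0.109), by limma-voom (0.0547) and in the fit of only the libraries compared (0.0596).

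Col1a2, the α2 chain of the same collagen, did not share the intermediate level in LXRdKO. It had 199 and 165 counts (4.59 and 3.78 CPM) in Ch25hKO, 51 and 77 counts (1.16 and 1.74 CPM) in LXRdKO, and 73 and 49 counts (1.64 and 1.13 CPM) in WT. Both Ch25hKO libraries stood above the other 4, and the LXRdKO and WT libraries were interleaved. Col1a2 rose 3.01-fold in Ch25hKO relative to WT (log2 1.59 ± 0.21, edgeR adjusted p = 8.38e-06), and its log2 fold change in LXRdKO relative to WT was 0.07 ± 0.24 (edgeR adjusted p = 0.868). It was lower in LXRdKO than in Ch25hKO (log2 fold change −1.53 ± 0.20, edgeR adjusted p = 9.94e-06). Per kilobase of annotated exon, Col1a1 stood at 0.38 and 0.475 of the Col1a2 level in Ch25hKO, at 0.841 and 0.375 in LXRdKO and at 0.294 and 0.343 in WT. That ratio overlapped between Ch25hKO and LXRdKO and was lower in both WT libraries than in the other 4, at the low Col1a1 counts given above.

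Col3a1, the chain of type III collagen, varied most between libraries of 1 genotype. It had 143 and 66 counts (3.3 and 1.51 CPM) in Ch25hKO, 63 and 33 counts (1.44 and 0.747 CPM) in LXRdKO, and 55 and 28 counts (1.24 and 0.645 CPM) in WT. In each genotype replicate 1 was above replicate 2, with CPM ratios of 2.18 in Ch25hKO, 1.92 in LXRdKO and 1.92 in WT, and the counting intervals of the Ch25hKO libraries, 120.5 to 168.5 and 51.0 to 84.0 counts, did not meet. The same ratio in the other 5 genes lay between 0.667 and 1.63 and went in both directions. Replicate numbers did not pair libraries over all genes, and the sources used here do not give whether replicate 1 was handled differently.

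**Figure D1:**
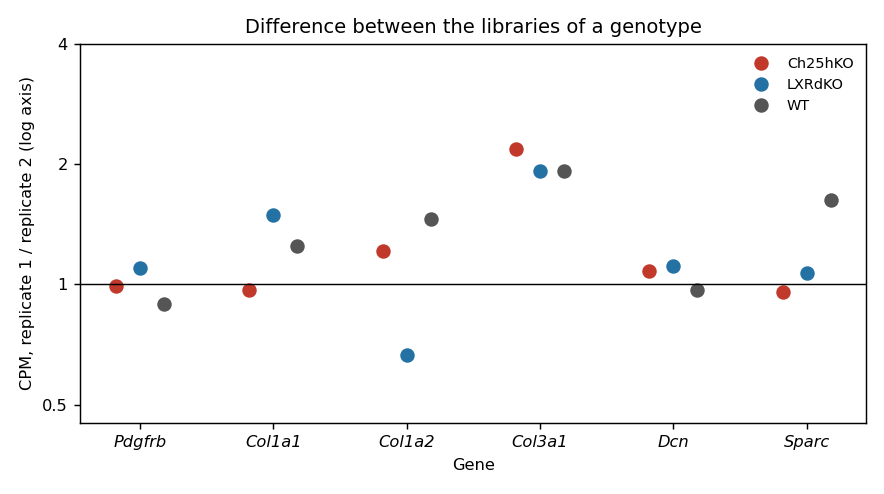
CPM of replicate 1 divided by CPM of replicate 2 (log axis) for each of the 6 genes, with 1 point per genotype and a line at equal levels. Col3a1 lies at 1.92 to 2.18 in all 3 genotypes, while the other genes lie between 0.667 and 1.63.

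The 2 Ch25hKO libraries still lay above the 2 WT libraries for Col3a1, and the edgeR fit gave a 2.54-fold rise (log2 1.35 ± 0.46, adjusted p = 0.0457). This call sat at the threshold and was lost under 5 alternatives: without Ch25hKO replicate 1 (0.67, adjusted p = 0.24), without WT replicate 2 (0.94, adjusted p = 0.203), by DESeq2 (1.34, adjusted p = 0.13) and with RLE (0.0527) or upper-quartile scaling (0.0513). The log2 fold change of Col3a1 in LXRdKO was 0.21 ± 0.51 relative to WT (edgeR adjusted p = 0.803) and −1.14 ± 0.44 relative to Ch25hKO (edgeR adjusted p = 0.0776), with overlapping libraries relative to WT. Relative to Ch25hKO it was called lower under 6 alternatives, among them without Ch25hKO replicate 2 (−1.59, adjusted p = 0.00277), without LXRdKO replicate 1 (−1.68, adjusted p = 0.0446), without a filter (adjusted p = 9.38e-05) and by limma-voom (adjusted p = 0.0307).

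Dcn, the decorin gene, had 348 and 325 counts (8.03 and 7.45 CPM) in Ch25hKO, 159 and 144 counts (3.62 and 3.26 CPM) in LXRdKO, and 189 and 191 counts (4.25 and 4.4 CPM) in WT. The 3 genotypes were again apart, with Ch25hKO highest, but here the LXRdKO libraries were the lowest of the 6. Dcn rose 1.79-fold in Ch25hKO relative to WT (log2 0.84 ± 0.11, edgeR adjusted p = 1.5e-05), the smallest rise of the 6 genes. The log2 fold change of −0.33 ± 0.13 in LXRdKO relative to WT missed the threshold (edgeR adjusted p = 0.0558), and relative to Ch25hKO Dcn was lower (−1.17 ± 0.12, edgeR adjusted p = 3.52e-07).

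Sparc had 162 and 170 counts (3.74 and 3.9 CPM) in Ch25hKO, 68 and 64 counts (1.55 and 1.45 CPM) in LXRdKO, and 97 and 58 counts (2.18 and 1.34 CPM) in WT. The Ch25hKO libraries were above all others, and the LXRdKO libraries lay between the 2 WT libraries. Sparc rose 2.16-fold in Ch25hKO relative to WT (log2 1.11 ± 0.19, edgeR adjusted p = 0.000154). The log2 fold change in LXRdKO was −0.23 ± 0.22 relative to WT (edgeR adjusted p = 0.45) and −1.35 ± 0.20 relative to Ch25hKO (edgeR adjusted p = 2.45e-05). Without WT replicate 2, Sparc was called lower in LXRdKO relative to WT (−0.56, adjusted p = 0.0467).

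**Figure D2:**
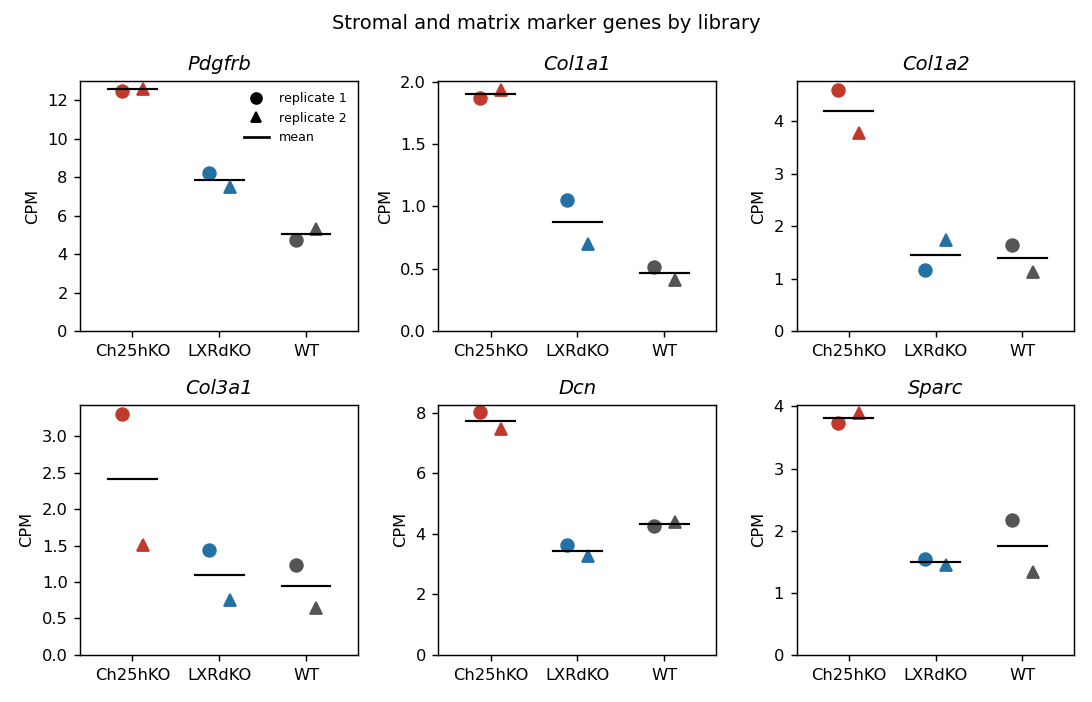
Level of each gene in CPM (y axis from 0, with a scale of its own in each panel) in the 2 libraries of Ch25hKO, LXRdKO and WT, with circles for replicate 1, triangles for replicate 2 and a bar at the mean. Both Ch25hKO libraries are the highest of the 6 in every panel, and LXRdKO lies between Ch25hKO and WT for Pdgfrb and Col1a1 only.

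Compared per kilobase of exon, the order of the genes was the same in every genotype. Dcn had the highest mean level, at 3.68 CPM per kb in Ch25hKO, 1.64 in LXRdKO and 2.06 in WT, followed by Pdgfrb at 2.29, 1.43 and 0.919 CPM per kb in those genotypes. Sparc came next, at 1.4 CPM per kb in Ch25hKO, 0.551 in LXRdKO and 0.647 in WT, ahead of Col1a2 at 0.757, 0.263 and 0.251. Col3a1, at 0.432 CPM per kb in Ch25hKO, 0.196 in LXRdKO and 0.169 in WT, and Col1a1, at 0.32, 0.148 and 0.0786, were lowest. Libraries of neighbours in this order overlapped for Col1a2 with Col3a1 in LXRdKO and WT, and for Col3a1 with Col1a1 in Ch25hKO and LXRdKO. Among all genes tested the mean CPM of the 6 fell between the percentiles 17.8 (Col1a1) and 45.3 (Pdgfrb).

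Taking the 6 genes as a list, 6 of 6 were called higher in Ch25hKO than in WT at an edgeR adjusted p under 0.05, where 19.8% of all genes tested were called higher, and 17.5% of the 3562 genes within their range of mean CPM. For 5 of them, all but Dcn, the rise was also at least 2-fold, a size reached with a call by 1.5% of all genes tested and 1.82% of those in the same range. The libraries did not overlap for any of the 6, which held in the higher direction for 35.6% of all genes. None was called lower by edgeR, DESeq2 or limma-voom or had an unadjusted p under 0.05 in that direction, against 19.5% of all genes called lower. Their median log2 fold change was 1.33, against 0.01 over all genes tested. From the largest rise down, Col1a1 ranked 50, Col1a2 77, Col3a1 101, Pdgfrb 107, Sparc 166 and Dcn 349 of 12923. Because the 6 genes were chosen with earlier results of these data known, the shares and ranks are a description and not independent support. In bulk RNA a change in the number of cells that express a gene cannot be told apart from a change in RNA per cell.

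In LXRdKO relative to WT, 2 of the 6 genes, Pdgfrb and Col1a1, were called higher, where 16.4% of all genes tested were called higher, and 9.15% of those in the same range of CPM. Without WT replicate 2 or LXRdKO replicate 1 the count was 1. None was called lower by edgeR, DESeq2 or limma-voom, and 1 (Dcn) had an unadjusted p under 0.05 in that direction by edgeR and 1 by limma-voom, against 0 by DESeq2. Over all genes tested 15.5% were called lower. Libraries stood apart for Pdgfrb and Col1a1 in the higher direction, as they did for 32.9% of all genes, and for Dcn in the lower one, as for 30.6%. The median log2 fold change of the 6 was 0.14, against 0.00 over all genes. Both comparisons with WT use the same WT libraries.

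Set directly against Ch25hKO, 5 of the 6 genes were called lower in LXRdKO, all but Col3a1, where 18.6% of all genes tested were called lower and 19.3% higher. Among genes in the same range of CPM 17.4% were called lower. For all 6 genes both LXRdKO libraries lay below both Ch25hKO libraries, which held for 36.6% of all genes. Their median log2 fold change was −1.15, against −0.01 over all genes. Pdgfrb and Col1a1, called higher in LXRdKO than in WT, were also among these 5, so their LXRdKO level was below that of Ch25hKO and above that of WT. The comparison uses the same Ch25hKO libraries as that of Ch25hKO with WT, so its result is not independent of that one.

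**Figure D3:**
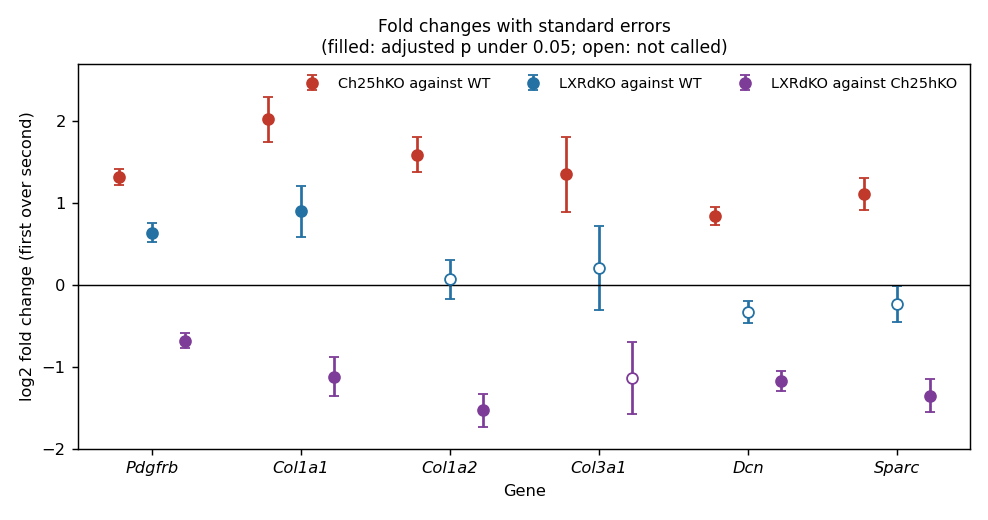
Log2 fold change of each gene in the 3 comparisons, first genotype over second, with bars of 1 standard error from edgeR, filled where the adjusted p was under 0.05 and open where it was not. All 6 red points (Ch25hKO against WT) are above 0, from 0.84 to 2.02, whereas the blue points (LXRdKO against WT) run from −0.33 to 0.90.

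The profiles of the genes over the 6 libraries were compared by the root mean square difference of log2 of CPM + 0.5, each centred on its own mean. The added 0.5 shrinks the differences of genes at low CPM, such as Col1a1, more than those of Pdgfrb. The distances and the order of the pairs therefore depend on it. Pdgfrb and Col1a1 were the closest pair, 0.13 apart, then Dcn and Sparc at 0.19 and Col1a2 and Sparc at 0.23, while Pdgfrb and Col3a1 were 0.42 apart. The 2 chains of type I collagen were 0.33 apart. The search for the nearest profiles covered the tested genes outside the 6 with a mean of at least 1 CPM. It left out symbols shaped like those of predicted or unnamed models, which could also drop some named genes. The nearest profiles to Pdgfrb were Cyb5b (0.06), F13a1 (0.07) and Wwc2 (0.10), and those to Col1a1 were Epha4 (0.09), Cyb5b (0.11) and F13a1 (0.14). Cyb5b encodes an outer mitochondrial cytochrome b5 and averaged 86.3 CPM in Ch25hKO, 50.5 in LXRdKO and 35.2 in WT. F13a1, the A subunit of coagulation factor XIII and a gene that macrophages express, averaged 24.1 CPM in Ch25hKO, 15.2 in LXRdKO and 9.51 in WT.

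Col1a2 lay nearest to Elovl6 (0.15), Fads1 (0.19) and Acaca (0.19), enzymes of fatty acid elongation, desaturation and synthesis. Acaca, acetyl-CoA carboxylase, averaged 27.6 CPM in Ch25hKO, 12.1 in LXRdKO and 11.9 in WT. Dcn lay nearest to Rcl1 (0.07), Hmgn2 (0.07) and Morn4 (0.08), and Sparc to Aebp1 (0.11), Shroom4 (0.12) and Lbr (0.13). The closest profile to Col3a1 was Timp3 (0.26), which encodes a matrix-bound inhibitor of metalloproteinases and averaged 2.93 CPM in Ch25hKO, 1.12 in LXRdKO and 0.875 in WT, followed by Rrp15 (0.28) and Fam136a (0.30). With 6 libraries of 3 genotypes, many genes that differ between genotypes come close to one another, so these distances are a description.

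Other genes of the matrix were read as lists for what surrounds the 6. The counts of calls in these lists, and in the lists of cell markers further below, stand beside the shares over all genes tested. In Ch25hKO relative to WT 19.8% were called higher and 19.5% lower, and in LXRdKO relative to WT 16.4% higher and 15.5% lower. Whether any list departed from those shares was not tested. Of the fibrillar and fibril-associated collagens, 6 of 9 passed the filter, and 3 of those rose in Ch25hKO relative to WT, with a median log2 fold change of 0.95. Col12a1, a collagen that coats type I fibrils, had 84 and 69 counts in Ch25hKO, 31 and 17 in LXRdKO and 14 and 24 in WT, a log2 rise in Ch25hKO over WT of 2.02 ± 0.31 (edgeR adjusted p = 5.86e-05). Col5a2, a chain of the type V collagen that starts fibrils, had 45 and 52 counts in Ch25hKO, 13 and 11 in LXRdKO and 11 and 15 in WT, a log2 rise of 1.90 ± 0.34 (edgeR adjusted p = 0.000204). Between LXRdKO and WT their libraries overlapped, and neither was called, with log2 fold changes of 0.33 ± 0.38 for Col12a1 and −0.12 ± 0.43 for Col5a2. The 1 gene of this list that rose in LXRdKO relative to WT, Col11a2 (0.83 ± 0.28, edgeR adjusted p = 0.0303), was lost by DESeq2 and without any 1 of the WT or LXRdKO libraries (adjusted p up to 0.163). Bgn, biglycan, was the only small leucine-rich proteoglycan besides Dcn to pass the filter, the other 7 having 0 to 14 counts a library. It had 199 and 156 counts in Ch25hKO, 54 and 40 in LXRdKO and 52 and 67 in WT, and rose in Ch25hKO relative to WT by 1.59 ± 0.20 on the log2 scale (edgeR adjusted p = 5.27e-06).

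Of 15 tested enzymes and helpers that fold, trim and cross-link collagen, 5 rose and 1 fell in Ch25hKO relative to WT (3 rose by DESeq2 or without either Ch25hKO library, and 0 fell without Ch25hKO replicate 1 and 3 without WT replicate 2), and 4 rose and 1 fell in LXRdKO relative to WT, with median log2 fold changes of 0.20 and −0.00. Lox, lysyl oxidase, which cross-links collagen and elastin, had 3751 and 3872 counts in Ch25hKO, 1521 and 1437 in LXRdKO and 2146 and 2076 in WT. It therefore rose in Ch25hKO relative to WT (log2 0.87 ± 0.05, edgeR adjusted p = 1.21e-09) and fell in LXRdKO relative to WT (−0.52 ± 0.06, edgeR adjusted p = 1.82e-06), the order of genotypes seen for Dcn. Its relative Loxl2 had 103 and 98 counts in Ch25hKO, 60 and 54 in LXRdKO and 22 and 11 in WT, and rose in both knockouts relative to WT, by 2.61 ± 0.28 in Ch25hKO (edgeR adjusted p = 7.78e-07) and 1.78 ± 0.30 in LXRdKO (edgeR adjusted p = 0.000184), the order seen for Pdgfrb and Col1a1.

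Of 13 matricellular and other matrix glycoproteins tested, 5 rose and 3 fell in Ch25hKO relative to WT, and 1 rose and 4 fell in LXRdKO relative to WT (3 rose without WT replicate 1 and 2 without LXRdKO replicate 2). Fn1, fibronectin, rose in Ch25hKO relative to WT by 0.91 ± 0.09 on the log2 scale (edgeR adjusted p = 6.92e-07), with 706 and 665 counts in Ch25hKO and 370 and 368 in WT. Thbs1, thrombospondin 1, and Fbn1, fibrillin 1, fell in Ch25hKO relative to WT, with log2 fold changes of −0.72 ± 0.06 (edgeR adjusted p = 8.77e-08) and −1.12 ± 0.10 (edgeR adjusted p = 1.05e-07), so this list did not move in 1 direction. The other rises were in Fbln2 (2.64 ± 0.48, edgeR adjusted p = 0.000284), Ctgf (1.52 ± 0.30, 0.000605), Cyr61 (2.12 ± 0.62, 0.0107) and Tgfbi (0.36 ± 0.05, 3.19e-05). Tnc also fell (−0.27 ± 0.08, edgeR adjusted p = 0.0101). The Cyr61 call (0 to 17 counts a library) failed under 3 of 14 alternatives, that of Tnc under 1 of 15. Fbln2, Ctgf, Cyr61, Tgfbi and Tnc were named after their values were seen. Fbln2, Ctgf and Cyr61 were called lower in LXRdKO than in Ch25hKO. Of 15 basement membrane and beaded collagen genes tested, 4 rose and 1 fell in Ch25hKO relative to WT, but the 4 became 0 by DESeq2, 1 without WT replicate 1 and 2 without either Ch25hKO library. The 1 that fell, Col4a5, changed by −1.07 ± 0.14 in Ch25hKO (edgeR adjusted p = 1.31e-05) and by −1.40 ± 0.15 in LXRdKO (edgeR adjusted p = 1.23e-06), each relative to WT. Lamc1, a laminin chain, was the other of 2 genes of this list that fell in LXRdKO relative to WT (−0.39 ± 0.05, edgeR adjusted p = 1.01e-05). Of 19 collagen receptors and matrix-degrading enzymes and inhibitors tested, 8 rose and 2 fell in Ch25hKO relative to WT (5 rose without Ch25hKO replicate 2, and 1 fell without WT replicate 2 or either Ch25hKO library), and 6 rose and 2 fell in LXRdKO relative to WT (1 fell without WT replicate 1 or either LXRdKO library).

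The PDGF ligands Pdgfb and Pdgfa fell in both knockouts relative to WT, Pdgfc was not called in either, and Pdgfd was below the filter with 0 to 2 counts. Pdgfb, which encodes a ligand of PDGFRβ, had 210 and 256 counts in Ch25hKO, 251 and 273 in LXRdKO and 484 and 459 in WT. It averaged 5.36 CPM in Ch25hKO, 5.95 in LXRdKO and 10.7 in WT and fell in both knockouts relative to WT, with an edgeR adjusted p of 1.05e-06 in Ch25hKO and 8.36e-06 in LXRdKO. Pdgfa fell too, with log2 fold changes of −0.81 ± 0.12 in Ch25hKO (edgeR adjusted p = 3.6e-05) and −0.95 ± 0.12 in LXRdKO (edgeR adjusted p = 1.02e-05), each relative to WT. The sister receptor Pdgfra had only 22 and 31 counts in Ch25hKO, 25 and 19 in LXRdKO and 11 and 11 in WT. Its log2 rise of 1.27 ± 0.40 in Ch25hKO relative to WT (edgeR adjusted p = 0.0163) was lost by DESeq2 (adjusted p up to 0.146 over the alternatives) and without Ch25hKO replicate 2. Of the 4 tested genes of this list, 1 rose and 2 fell in Ch25hKO relative to WT, and 2 fell in LXRdKO relative to WT.

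Many markers of stromal cell types other than the 6 genes were below the filter. Of 17 fibroblast and mesenchymal markers, 9 were below the filter with 0 to 6 counts a library. Among them were Thy1 (0 to 1), Pi16 (1 to 6), and Meox1 and Tcf21 with no count in any library. A count of 0 still allows an expected count of up to 3 in a library (1-sided 95% Poisson bound). Of 9 marrow niche markers, 4 were below the filter with 0 to 15 counts, among them Lepr (0 to 4), and 5 passed it. Cxcl12, also below the filter and so not tested, had 15 and 6 counts in Ch25hKO, 7 and 2 in LXRdKO and 2 and 5 in WT. Of 13 pericyte and smooth muscle markers, 6 were below the filter and 7 passed it, with Des and Kcnj8 at 0 in every library and Rgs5 at 0 to 1. Of 8 osteoblast markers, 7 had 0 to 6 counts a library, with Sp7 at 0 to 1 and Dmp1 at 0 throughout. Thy1, Pi16, Cxcl12, Lepr, Rgs5 and Sp7 were named after their counts were seen.

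Among the markers of these cell types that passed the filter, some rose and others fell, to be read beside the shares over all genes given above. Of 8 fibroblast and mesenchymal markers tested, 3 rose and 4 fell in Ch25hKO relative to WT (1 rose by DESeq2 and 0 without Ch25hKO replicate 2), and 4 fell in LXRdKO relative to WT. The 3 that rose were Pdgfra, described above, the mesenchymal transcription factor gene Prrx1 and Pdpn, podoplanin, and Prrx1 was named after its values were seen. Prrx1 had 52 and 49 counts in Ch25hKO, 29 and 14 in LXRdKO and 29 and 20 in WT, a log2 rise in Ch25hKO over WT of 1.06 ± 0.32 (edgeR adjusted p = 0.014), lost by DESeq2 and without WT replicate 2 or either Ch25hKO library (adjusted p up to 0.0865). Pdpn rose by 0.24 ± 0.06 in Ch25hKO relative to WT (edgeR adjusted p = 0.00421), lost without Ch25hKO replicate 2 (adjusted p = 0.152). Gsn and Vim, cytoskeletal genes that macrophages also express, fell in Ch25hKO relative to WT, with log2 fold changes of −0.45 ± 0.06 (edgeR adjusted p = 7.07e-06) and −0.40 ± 0.06 (edgeR adjusted p = 4.83e-05). Fap and S100a4 also fell in this comparison, by −0.74 ± 0.18 (edgeR adjusted p = 0.0102) for Fap and by −0.21 for S100a4. Fap fell in LXRdKO relative to WT too (−0.68 ± 0.18, edgeR adjusted p = 0.0182). The Ch25hKO call was lost without Ch25hKO replicate 2 for Fap and without Ch25hKO replicate 1 for S100a4. Without either LXRdKO library the LXRdKO call of Fap was lost. Fap was named after its values were seen. Among 5 niche markers tested, 3 fell and 1 rose in Ch25hKO relative to WT. The same 5 gave 2 rises and 1 fall in LXRdKO relative to WT, fewer without WT replicate 2, without either LXRdKO library and by DESeq2. Kitl, the stem cell factor gene, had 219 and 237 counts in Ch25hKO, 501 and 502 in LXRdKO and 628 and 595 in WT, a log2 change of −1.41 ± 0.09 in Ch25hKO relative to WT (edgeR adjusted p = 2.23e-09). Nes, nestin, changed by −1.23 ± 0.07 (edgeR adjusted p = 2.52e-10) and Angpt1, angiopoietin 1, by −1.32 ± 0.11 (edgeR adjusted p = 8.54e-08) in the same comparison, opposite to all 6 genes. The 1 niche marker that rose in Ch25hKO, Grem1, had low counts, 32 and 31 in Ch25hKO, 12 and 20 in LXRdKO and 15 and 11 in WT (log2 1.28 ± 0.37 in Ch25hKO relative to WT, edgeR adjusted p = 0.0112), and its call was lost by DESeq2 and without Ch25hKO replicate 1 (adjusted p up to 0.075).

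Of 7 pericyte and smooth muscle markers tested, 1 (Tagln) fell in Ch25hKO relative to WT, a call lost without WT replicate 1, without Ch25hKO replicate 1 and by DESeq2 (adjusted p up to 0.272). Mylk was the 1 of the 7 that fell in LXRdKO relative to WT, lost without LXRdKO replicate 1 (adjusted p = 0.0639). The 1 osteoblast marker tested, Runx2, changed by −0.40 ± 0.13 in Ch25hKO relative to WT (edgeR adjusted p = 0.0216), lost without WT replicate 2, without either Ch25hKO library and by DESeq2 (adjusted p up to 0.151). Of 5 endothelial markers tested, 4 fell in Ch25hKO relative to WT, and 1 rose and 3 fell in LXRdKO relative to WT. Pecam1 changed by −1.04 ± 0.11 in Ch25hKO (edgeR adjusted p = 1.32e-06) and −0.70 ± 0.11 in LXRdKO (edgeR adjusted p = 9.97e-05), each relative to WT. Of 3 adipocyte markers tested, 1 rose and 1 fell in each knockout relative to WT, the rise in LXRdKO being lost by DESeq2 and without WT replicate 2 or either LXRdKO library.

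Summed levels of the marker lists are set by their most abundant genes. Fibroblast and mesenchymal markers summed to 1081.3 to 1168.9 CPM in Ch25hKO, 1044.8 to 1075.5 CPM in LXRdKO and 1245.9 to 1325.0 CPM in WT, mostly from Vim, Pdpn and S100a4, which macrophages also express, so this sum does not show rare markers such as Prrx1. Niche markers summed to 53.2 to 59.4 CPM in Ch25hKO, 106.3 to 114.0 CPM in LXRdKO and 97.8 to 105.5 CPM in WT, and pericyte and smooth muscle markers to 13.1 to 14.6 CPM in Ch25hKO, 13.3 to 14.6 CPM in LXRdKO and 14.6 to 15.4 CPM in WT. Osteoblast markers summed to 3.87 to 3.88 CPM in Ch25hKO, 5.06 to 5.11 CPM in LXRdKO and 4.61 to 5.62 CPM in WT, endothelial markers to 99.0 to 105.9 CPM in Ch25hKO, 141.0 to 146.8 CPM in LXRdKO and 146.1 to 148.0 CPM in WT, and adipocyte markers to 351.7 to 369.2 CPM in Ch25hKO, 322.1 to 348.4 CPM in LXRdKO and 406.0 to 435.0 CPM in WT. The Ch25hKO range lay below the WT range in each of these sums except that of pericyte and smooth muscle markers, where the ranges met at 14.6 CPM. Each sum rested on few genes. In WT, Lpl averaged 377.6 CPM of the adipocyte sum and Runx2 4.98 CPM of the osteoblast sum. Kdr (69.8 CPM), Vwf (35.4) and Flt1 (26.9) made up most of the endothelial sum. Nes (42.1 CPM), Vcam1 (26.1) and Angpt1 (19.0) made up most of the niche sum. These sums therefore do not show the rarer markers of their lists. Of the 10 macrophage markers, 1 rose and 2 fell in Ch25hKO relative to WT (leaving out Ch25hKO replicate 1 gave 0 and 1, and 2 rose when WT replicate 1 was left out), and 7 rose in LXRdKO relative to WT (4 without either LXRdKO library). Whether other cell types in the cultures had a part in the levels of the 6 genes was not tested.

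**Figure D4:**
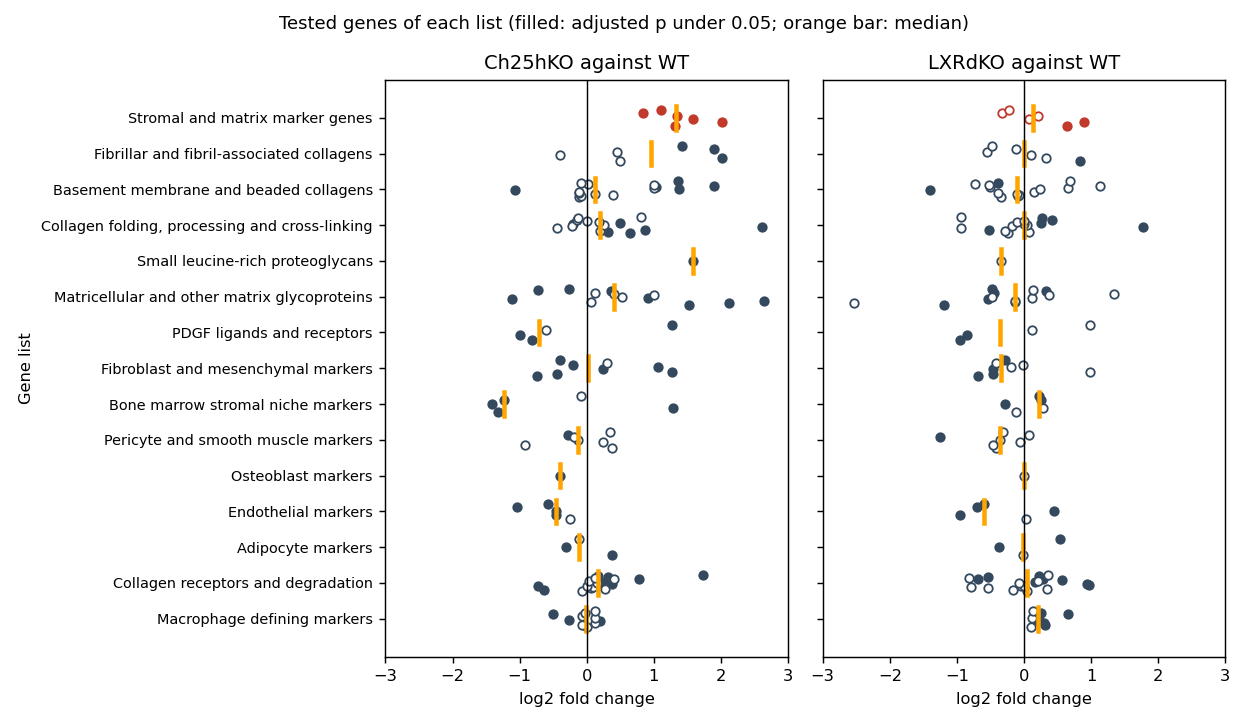
Log2 fold change of every tested gene of each list (rows) in Ch25hKO against WT (left) and LXRdKO against WT (right), filled where the edgeR adjusted p was under 0.05 and open otherwise, with an orange bar at each list's median. In the left panel the 6 stromal and matrix genes (red, top row) have a median of 1.33. The fibrillar and fibril-associated collagens have one of 0.95, and the small leucine-rich proteoglycans one of 1.59 from 1 tested gene. The fibroblast and mesenchymal markers have one of 0.01 and the marrow niche markers one of −1.23.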

How the data were processed

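RNA sequencing of 6 libraries was analysed. The deposited values are unnormalized counts of reads, 1 row per gene symbol and 1 column per library. The submitters' processing notes name STAR 2.3.0, HTSeq, CASAVA and the build mm10, while the sources used here do not give the annotation, counting mode or strand setting. RNA was amplified to cDNA before library construction, per the labels' protocols. Groups and replicate numbers came from the sample titles.

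From the counts, all 3 genotypes were fitted together with edgeR 4.0.16 in R 4.3.3 (filterByExpr defaults, TMM scaling, robust quasi-likelihood test, two-sided, Benjamini-Hochberg adjustment over 12923 genes, called under 0.05). The spread of each gene was moderated by that of all genes tested, with 3 residual and a median of 14.4 prior degrees of freedom. CPM used TMM-scaled library sizes, and errors of fold changes are standard errors. Levels per kb used the exon union of GENCODE M21. Scripts were tested on simulated data. Alternatives were RLE and upper-quartile scaling, DESeq2 1.42.0, limma-voom (limma 3.58.1), no filter, a filter of 5 CPM in 2 libraries, only the libraries compared, a replicate block, and each library left out. A crossed block was added after seeing the data.

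The 6 genes and the 14 other lists were chosen with earlier results of these data known. From each list the 4 genes of lowest p against WT could be named, plus those with no count, and for each of the 6 genes the 3 genes of most similar profile (log2 of CPM + 0.5). Gene symbols were matched to GENCODE by name.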

Additional observations from a re-analysis of the deposited data

How the results depend on the processing

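Of the 6 rises in Ch25hKO relative to WT, 5 kept their direction and call under every alternative that tested the gene, and Col3a1 is described above; 5 to 6 genes were called higher, or 2 with the filter of 5 CPM, which only Pdgfrb and Dcn passed. In LXRdKO relative to WT, 1 gene was called higher by DESeq2, limma-voom, the 5 CPM filter and the fit of only the libraries compared, and 1 to 2 with a library left out; Dcn was called lower with the 5 CPM filter (−0.36, adjusted p = 0.0356), giving a count of 1, and 1 gene was lower with the crossed block. With a library left out 0 to 1 were called lower, the 1 being Sparc without WT replicate 2 (−0.56, adjusted p = 0.0467). With libraries left out, the log2 fold changes in LXRdKO relative to WT ran from −0.26 to 0.36 for Col1a2, from −0.34 to 0.76 for Col3a1 and from −0.56 to 0.17 for Sparc, so their direction is not fixed, and the cause was not tested. In LXRdKO relative to Ch25hKO 5 to 6 genes were called lower, or 2 with the 5 CPM filter. The sixth was Col3a1, with −1.10 by limma-voom (adjusted p = 0.0307) and −1.14 without a filter (9.38e-05); both block fits described next also changed this call, each with −1.13 (adjusted p = 0.000602 with the replicate block and 0.0264 with the crossed block).

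Replicate numbers did not pair the libraries. The correlation of deviations between same-numbered libraries was −0.105 for Ch25hKO with WT, −0.0127 for LXRdKO with WT and 0.0245 for LXRdKO with Ch25hKO. With the replicate block 6 genes were higher in Ch25hKO relative to WT, 2 higher in LXRdKO relative to WT and 6 lower in LXRdKO relative to Ch25hKO. With the crossed block these counts were 6, 2 and 6. The standard errors relative to WT were largest for Col3a1, whose libraries spread beyond counting error, and a library left out leaves 1 library in its group, which is assumed to vary like the others.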
